A study of Mus musculus with 2 samples.

Results

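Voltage-gated calcium channels open when a cell depolarizes and let calcium in, which triggers transmitter release, shapes firing and drives gene expression. A large α1 subunit forms the pore: the Cav2 channels serve mainly release sites, the L-type Cav1 channels couple activity to firing and transcription, and the T-type Cav3 channels open near rest and favour bursts and pacemaking. The α2δ auxiliary subunits raise the number of channels at the membrane, and some of them bind gabapentin. The ventral parafacial region of the brainstem holds the retrotrapezoid nucleus, whose glutamatergic neurons sense CO2, express Nmb and drive breathing.

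Described here are 10 genes of this family, given by symbol and found in both libraries among 28692 genes: the pore genes Cacna1a, Cacna1b and Cacna1e (Cav2), Cacna1c and Cacna1d (Cav1) and Cacna1g, Cacna1h and Cacna1i (Cav3), 8 in all, and Cacna2d1 and Cacna2d2. The last pair encodes α2δ subunits, which do not form the pore, so the name pore subunits fits 8 of the 10. The study profiled single cells of the ventral parafacial region from brainstem slices of C57BL6/J mice aged 10 days. In the untreated (WT) library 8 mice were pooled, 4 male and 4 female, and in the 4OH-tamoxifen library another 8, 4 male and 4 female, which had received 0.2 mg per day for 3 days. Neither group carries a transgene in the labels. With 1 library for each condition, and each condition its own batch, treatment and batch cannot be told apart, and mice within a pool cannot be separated.

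Cells were assigned to 9 classes by gates on marker transcripts, none of them a calcium channel gene: 4 classes of neurons (Nmb, for retrotrapezoid neurons; other Slc17a6 neurons, which are glutamatergic; Slc32a1, inhibitory; Chat, cholinergic) and 5 of other cells (Aqp4, astrocytes; Pdgfra, oligodendrocyte precursors; Mog, oligodendrocytes; C1qa, microglia and macrophages; Cldn5, endothelial cells). The gates hold 2300 untreated and 5192 4OH-tamoxifen cells, among them 24 and 54 Nmb, 22 and 84 Slc17a6, 81 and 304 Slc32a1 and 20 and 88 Chat neurons. Markers that the gates did not use were high in the classes they name: Gal was at 4582 and 3426 CPM in the Nmb gate, Gad1 at 710 and 487 in the Slc32a1 gate, Slc18a3 at 540 and 873 in the Chat gate, Gja1 at 1894 and 1525 in the Aqp4 gate, Cspg4 at 238 and 242 in the Pdgfra gate, Cx3cr1 at 1276 and 1169 in the C1qa gate and Flt1 at 1475 and 1443 in the Cldn5 gate. The Slc17a6 gate has no further glutamatergic marker in the lists, and it also holds cholinergic markers, which sum to 502 and 658 CPM (Slc5a7 the highest, Chat at 0), against 145 and 143 in the Nmb, 69.3 and 164 in the Slc32a1 and 4453 and 4519 in the Chat gate. Their part in the comparisons with Slc17a6 neurons was not tested. The Cldn5 gate also holds Rgs5, a pericyte gene, at 1340 and 1385 CPM. The libraries share 14 barcodes among gated cells.

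Levels are in CPM, the unique molecular identifiers (UMIs, counted transcripts) of a gene per 1000000 UMIs of all cells of a class in a library, and each pair of values gives the untreated library first. Brackets hold 95% Poisson intervals, which cover counting error only. Reads come from the 3′ end of transcripts and are not scaled by length, so levels are compared between classes and not between genes. Class differences were tested with edgeR on the UMI sums of the compared sets in both libraries, 4 sums with the library as a covariate and 1 residual degree of freedom. The p-values are adjusted over all genes tested, and a gene is called past an adjusted p of 0.05. Log2 fold changes carry a standard error derived from the test statistic. A change in 1 library alone is a difference of log2 CPM with a small count added, which makes changes of low counts smaller.

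All 10 genes were higher in the neurons as 1 group than in the other cells. Of the Cav2 genes, Cacna1b was at 119 and 126 CPM in the neurons and at 8.62 and 7.38 in the non-neuronal classes, Cacna1e at 65.3 and 81.5 and at 8.24 and 9.45, and Cacna1a, the pore of the P/Q-type channel, at 88.2 and 137 and at 22.9 and 20.01. Each neuronal value lies above both non-neuronal ones. The log2 fold changes ran from 1.66 ± 0.25 (adjusted p = 1.65e-06) for Cacna1d to 3.92 ± 0.22 (adjusted p = 4.96e-15) for Cacna1g, with a median of 3.27 against -0.06 over the 13871 genes tested, and both libraries alone showed the direction for each gene. edgeR called 10 of 10 members higher, where 32.3% of all genes were called higher and 34.4% lower, and DESeq2 called all 10, where it called 41.9% of all genes in either direction. For Cacna1h the Chat gate supplies 10 of 20 and 36 of 63 neuronal UMIs, and the intervals of the other neuron classes, at 9.24 to 15.5 CPM, overlap those of the Aqp4 gate (17.5 and 13.4). Classes also overlap in both libraries for other genes. The Pdgfra gate overlaps Nmb, Slc32a1 and Slc17a6 neurons for Cacna1d, and Nmb, Slc32a1 and Chat neurons for Cacna1c. It also overlaps Nmb neurons for Cacna1e and Slc17a6 neurons for Cacna1i. The Aqp4 and C1qa gates overlap Nmb, Slc32a1 and Slc17a6 neurons for Cacna1d, and the Cldn5 gate overlaps Nmb neurons for Cacna1c and Cacna1e. Further overlaps of Cacna1h, of Cacna1i in Chat neurons and of Cacna2d1 in Slc32a1 neurons are not listed here. The Cacna1d mean is 24.05 CPM in the Pdgfra gate and 19.14 in Slc17a6 neurons. The scaling of the libraries (TMM) moves the median of all genes by 0.23 log2 in this comparison, less than any member's change. With all 9 classes in 1 fit Cacna1i lost its call (log2 fold change 2.08, adjusted p = 1). Among cells with at most 10% mitochondrial UMIs the change of Cacna1h was 2.58 in place of 1.69 and that of Cacna2d1 3.24 in place of 3.90, and after each cell was thinned to 2000 UMIs that of Cacna1i was 3.07 in place of 3.85, all still called.

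**Figure D1:**
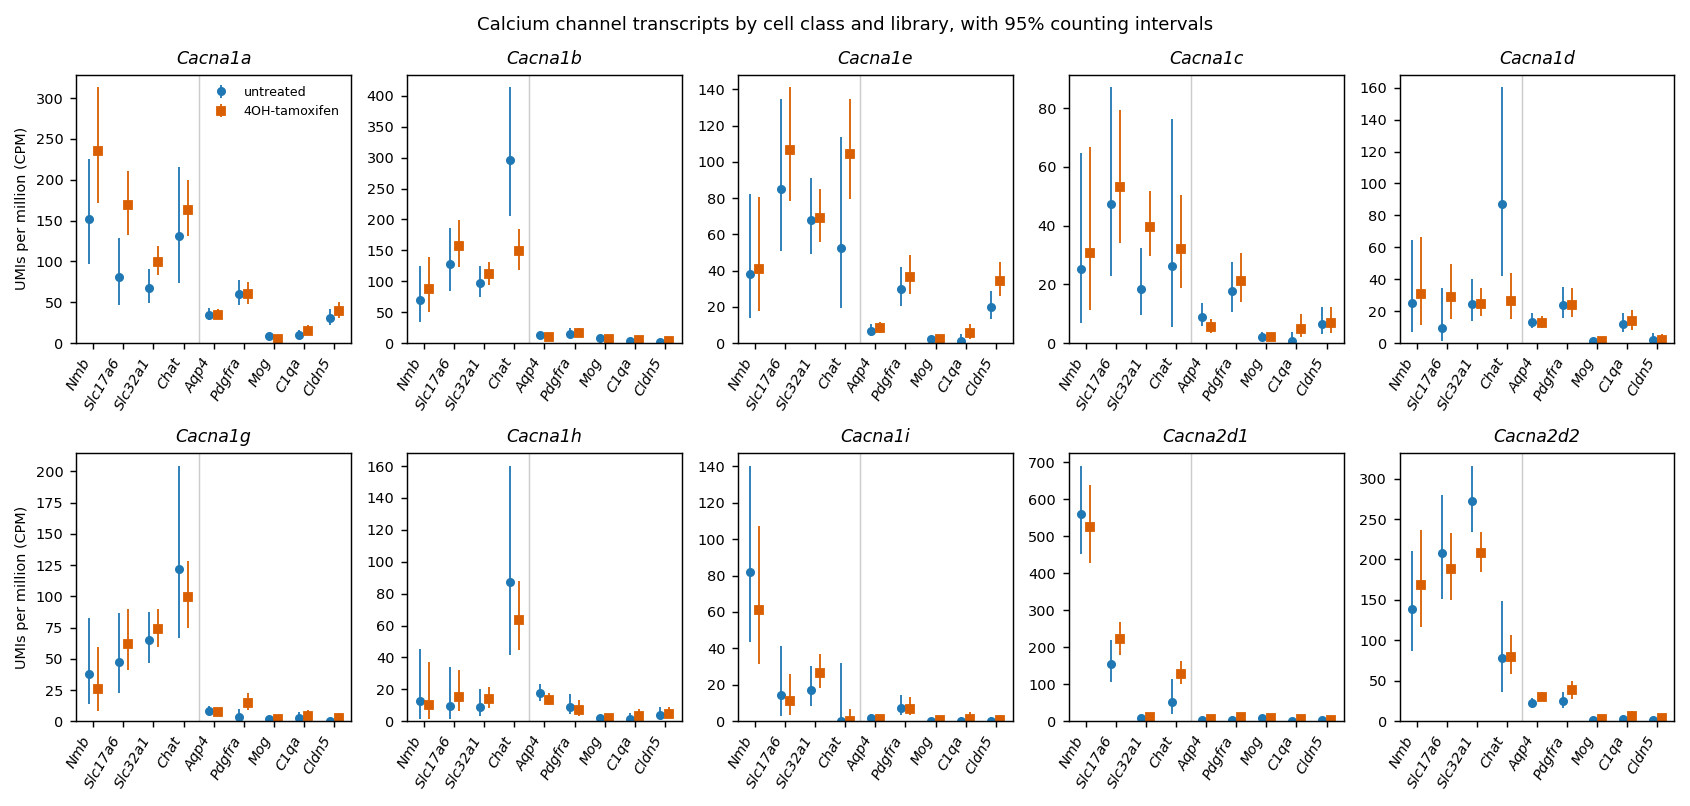
Level of each gene in CPM (vertical axis, linear from 0) in the 9 marker-gated classes, neurons left of the grey line; circles are the untreated and squares the 4OH-tamoxifen library, and bars are 95% Poisson intervals. Cacna2d1 stands at 562 and 526 CPM in the Nmb gate and at 7.70 and 12.9 in the Slc32a1 gate, and Cacna1h is at 87.1 and 63.7 in the Chat gate.

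The C1qa gate is printed beside neuronal values as a class not expected to make neuronal transcripts, and there the members lay between 0 and 14.8 CPM. It is no common background for Cacna1d, which was at 11.7 and 13.5 CPM in the C1qa and 13.5 and 12.7 in the Aqp4 gate, but at 2.13 and 1.88 in the Cldn5 and 1.20 and 1.26 in the Mog gate. The C1qa and Cldn5 intervals of this gene stand apart in both libraries. Mbp, a transcript of oligodendrocytes, was found in every class: it was at 4652 and 6116 CPM in the Nmb gate, 4554 and 3926 in the Slc17a6 gate, 4511 and 5520 in the Slc32a1 gate and 7974 and 3834 in the Chat gate, against 19165 and 19681 in the Mog gate. The level of Mbp was higher in most other non-neuronal gates than in neurons, at 11003 and 13131 CPM in the Aqp4, 10711 and 15962 in the Pdgfra, 9541 and 13628 in the C1qa and 6537 and 7709 in the Cldn5 gate. What part free RNA has in the levels of the members was not tested.

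Cacna2d1, the α2δ subunit with the highest affinity for gabapentin, was at 562 [451–691] and 526 [429–638] CPM in the Nmb gate, at 156 [108–219] and 222 [180–270] in other Slc17a6 neurons, at 52.3 [19.2–114] and 129 [101–162] in Chat neurons, and at 7.70 [2.50–17.98] and 12.9 [7.53–20.7] in Slc32a1 neurons. Nmb neurons stand above the other glutamatergic neurons in both libraries, and Chat neurons above Slc32a1 neurons, with no overlap of intervals. In Slc32a1 neurons the level is near that of the non-neuronal gates, which ran from 2.07 to 10.9 CPM and whose intervals overlap it. At least 1 Cacna2d1 UMI was found in 95.8% and 72.2% of Nmb neurons and in 6.17% and 3.95% of Slc32a1 neurons, at median depths of 6547 and 3658 and of 7657 and 4014 UMIs, against 0.865% and 0.868% of C1qa cells at 4006 and 2312. After thinning to 2000 UMIs per cell the shares were 60.9% and 69.6%, 1.23% and 2.46%, and 0.597% and 1.01%.

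Cacna2d2, the α2δ subunit that is lost in the ducky mouse, has another order: it was at 273 [234–316] and 208 [184–235] CPM in Slc32a1, 208 [151–280] and 188 [151–233] in Slc17a6, 139 [87.0–210] and 169 [116–237] in Nmb and 78.4 [35.9–149] and 79.7 [58.1–107] in Chat neurons. The first 3 classes overlap from neighbour to neighbour in both libraries. Of the 44 untreated UMIs in Slc17a6 neurons, 33 come from 5 of the 22 cells, those with Th, and 13 of them from 1 cell, and of the 85 in the 4OH-tamoxifen library 33 come from 12 of 84 cells. Both α2δ transcripts were found together in 15 of 24 and 20 of 54 Nmb neurons, Cacna2d1 alone in 8 and 19 and Cacna2d2 alone in 0 and 5. In the Slc32a1 gate both were found in 4 of 81 and 8 of 304 cells, Cacna2d1 alone in 1 and 4, and Cacna2d2 alone in 53 and 146. At least 1 Cacna2d2 UMI was found in 1.15% and 1.56% of C1qa cells. After thinning to 2000 UMIs per cell, Nmb neurons held both in 4 of 23 and 6 of 46 cells, Cacna2d1 alone in 10 and 26, Cacna2d2 alone in 2 and 4 and neither in 7 and 10, and Slc32a1 neurons both in 0 of 81 and 3 of 284, Cacna2d1 alone in 1 and 4, Cacna2d2 alone in 33 and 89 and neither in 47 and 188. Among cells with an α2δ transcript, Cacna2d1 was thus the more frequent in Nmb and Cacna2d2 in Slc32a1 neurons, while a cell without UMIs may still hold transcripts.

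**Figure D2:**
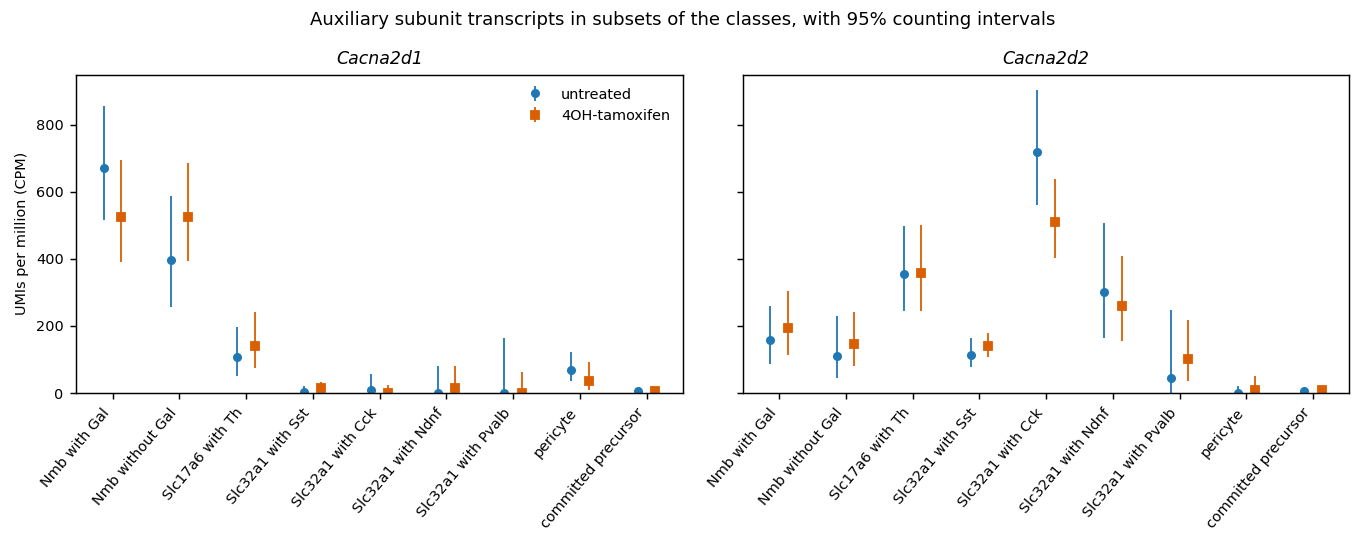
Level of the α2δ genes in CPM (vertical axis, linear from 0) in subsets of the classes gated by 1 further transcript and in pericytes and committed oligodendrocyte precursors; circles are the untreated and squares the 4OH-tamoxifen library, and bars are 95% Poisson intervals. Cacna2d1 is at 397 to 670 CPM in Nmb neurons with or without Gal, and Cacna2d2 at 718 and 511 CPM in Slc32a1 neurons with Cck.

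Against Slc32a1 neurons, Nmb neurons had higher Cacna2d1 by a log2 fold change of 5.63 ± 0.26 (adjusted p = 7.28e-26), higher Cacna1a by 1.25 ± 0.24 (adjusted p = 9.17e-05) and higher Cacna1i by 1.68 ± 0.44 (adjusted p = 0.00563), each in both libraries. Of 9 members tested (Cacna1h had too few UMIs) these 3 were called higher, where 5.39% of the 6926 genes tested were, and 0 lower, where 5.95% were, and 6 were not called. The median change of the 9 was -0.04, and -0.01 over all genes. DESeq2 called 1 member, Cacna2d1 (adjusted p = 1.03e-28), where it called 2.04% of genes, and gave adjusted p = 0.324 for Cacna1a and 0.696 for Cacna1i. Cacna1i also lost its call with all 9 classes in 1 fit (1.51, adjusted p = 0.0682) and in the setting Nmb with Slc17a6 (1.40, adjusted p = 0.065). That setting required at least 1 UMI each of Nmb and Slc17a6, in place of at least 2 Nmb UMIs. It thus required Slc17a6 but lowered the Nmb limit, and it also changed other gates. The Slc17a6 gate went from 22 and 84 to 20 and 74 cells.

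The levels behind Cacna1a were 152 [97.1–225] and 235 [172–313] CPM in Nmb, 131 [73.2–216] and 163 [131–200] in Chat, 80.5 [46.9–129] and 169 [133–211] in Slc17a6 and 67.8 [49.2–91.0] and 99.6 [83.3–118] in Slc32a1 neurons. Nmb, Chat and Slc17a6 neurons overlap from neighbour to neighbour in both libraries, and Nmb and Slc32a1 neurons in neither. Nmb neurons had a median of 15.7% and 11.6% mitochondrial UMIs against 11.3% and 9.42% in Slc32a1 neurons. A limit of 10% leaves 4 and 13 Nmb neurons, and there the change of Cacna1a was 0.95 (adjusted p = 0.7). The part of depth and mitochondrial share in these differences was not tested.

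Cacna1i, a slowly inactivating T-type pore, was at 82.1 [43.7–140] and 61.3 [31.7–107] CPM in Nmb neurons, 17.0 [8.46–30.3] and 26.6 [18.5–37.0] in Slc32a1 neurons and 14.2 [2.93–41.5] and 11.1 [3.60–25.9] in Slc17a6 neurons. The Nmb level is the top of the order in both libraries, on 13 and 12 UMIs. At least 1 Cacna1i UMI was found in 37.5% and 20.4% of Nmb and 13.6% and 10.2% of Slc32a1 neurons. In C1qa cells the shares were 0% and 0.347%. After thinning, Cacna1i was found in 4.35% and 15.2% of Nmb and 3.70% and 3.87% of Slc32a1 neurons. The untreated shares then rest on 1 of 23 and 3 of 81 cells, too few to tell whether they differ. Against the other Slc17a6 neurons, the class closest in transmitter, Nmb neurons had higher Cacna1i by 2.51 ± 0.61 (adjusted p = 0.00116). In each library alone, untreated first, the Cacna1i change was 2.11 and 1.89. Nmb neurons also had higher Cacna2d1 by 1.55 ± 0.22 (adjusted p = 2.82e-10). These 2 of 6 members tested were called higher, where 3.89% of 4264 genes were, and 0 lower, where 4.32% were. The members' median was 0.20, and -0.02 over all genes. Cacna1c, Cacna1d, Cacna1g and Cacna1h had too few UMIs to be tested. DESeq2 called 1 member, Cacna2d1 (adjusted p = 0.021), where it called 0.868% of genes, and gave adjusted p = 0.619 for Cacna1i. With the limit of 10% mitochondrial UMIs the change of Cacna2d1 was 1.09 (adjusted p = 0.332). Without TMM scaling the share of higher genes among those called moved from 47.4% to 34.1%.

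Cacna1e, the R-type pore, went the opposite way in that pair and fell just short of the threshold. It was at 37.9 [13.9–82.4] and 40.8 [17.6–80.5] CPM in Nmb neurons, against 85.2 [50.5–135] and 106 [78.5–141] in Slc17a6, 67.8 [49.2–91.0] and 69.2 [55.7–85.0] in Slc32a1 and 52.3 [19.2–114] and 104 [79.5–135] in Chat neurons. The log2 fold change against Slc17a6 neurons was -1.23 ± 0.43 (adjusted p = 0.0528), and it passed the threshold in 4 of 13 alternatives, over which the adjusted p ran from 0.0258 with at least 1200 genes per cell to 1 with DESeq2.

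When all glutamatergic neurons were put together, the α2δ contrast remained. In Slc17a6 and Nmb neurons summed Cacna2d1 was at 330 and 314 CPM and in Slc32a1 neurons at 7.70 and 12.9, a log2 fold change of -4.80 ± 0.26 for Slc32a1 neurons (adjusted p = 8.67e-72), and Cacna1a was at 111 and 189 against 67.8 and 99.6, a change of -0.82 ± 0.21 (adjusted p = 0.00148). Both were lower in Slc32a1 neurons in both libraries. Of 9 members tested (not Cacna1h) 2 were called lower, where 4.66% of 8392 genes were, and 0 higher, where 4.28% were, with a median of -0.19 against 0.00 over all genes. DESeq2 called 1 member, Cacna2d1 (adjusted p = 1.53e-20), where it called 1.06% of genes. Cacna1a lost its call with DESeq2 (-0.80, adjusted p = 1), without the library covariate (-0.82, adjusted p = 0.198) and with at most 10% mitochondrial UMIs (-0.30, adjusted p = 0.811). Cacna2d2 differed by 0.40 ± 0.18, which did not pass the test (adjusted p = 0.165).

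**Figure D3:**
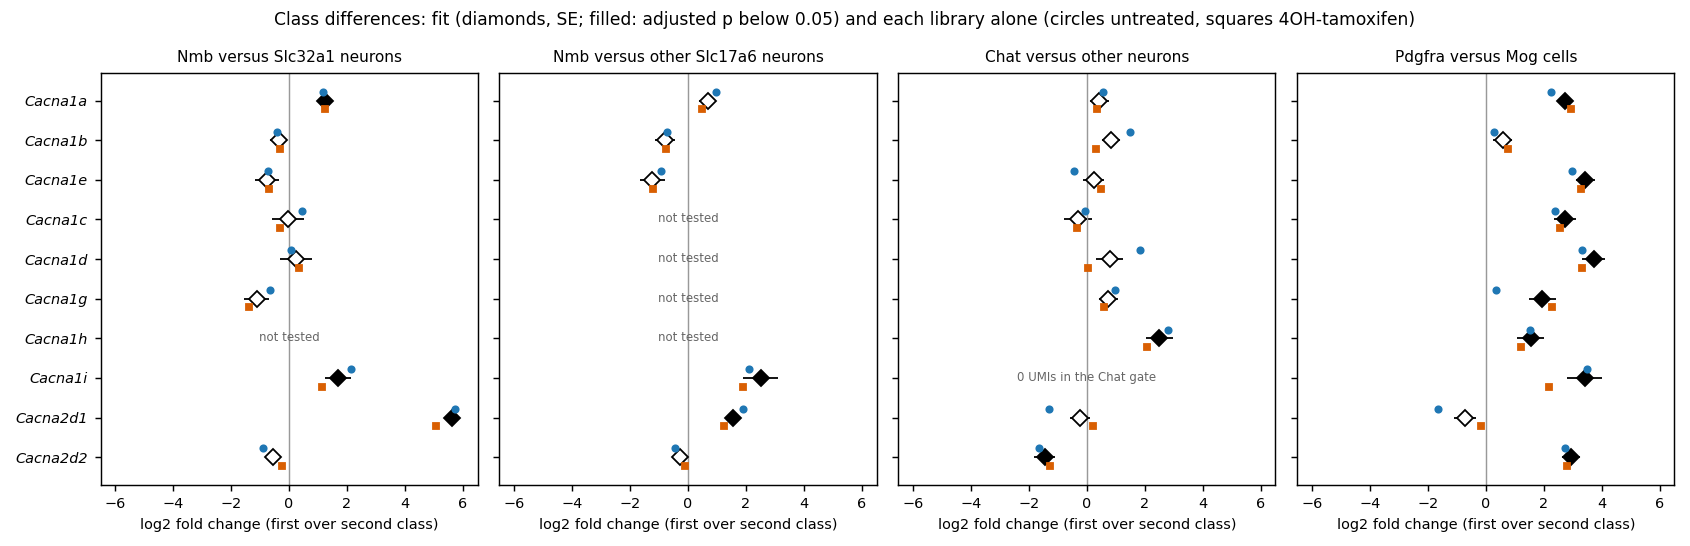
Log2 fold change of each gene (horizontal axis) in 4 class comparisons; diamonds are the edgeR fit with its standard error, filled where the adjusted p is below 0.05, circles the untreated and squares the 4OH-tamoxifen library alone. Cacna2d1 lies at 5.63 for Nmb against Slc32a1 neurons, and Cacna1h at 2.49 for Chat against other neurons, with both libraries on the same side; no point is drawn for Cacna1i in Chat neurons, which had 0 UMIs.

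Chat neurons carried another T-type gene. Cacna1h, the pore of Cav3.2 channels, was at 87.1 [41.8–160] and 63.7 [44.6–88.2] CPM in Chat neurons and at 9.24 to 15.5 CPM in the other neuron classes. Its intervals in Chat neurons lie above those of the Aqp4 gate, the next in the order (17.5 [12.7–23.6] and 13.4 [10.0–17.6]), in both libraries. At least 1 UMI was found in 45.0% and 33.0% of Chat neurons, at median depths of 5012 and 4456 UMIs, and in 0.288% and 0.868% of C1qa cells, at 4006 and 2312, and after thinning in 16.7% and 16.7% against 0.299% and 0.754%. The log2 fold change against the other neurons was 2.49 ± 0.47 (adjusted p = 4.89e-06, and 0.0275 with DESeq2).

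Cacna1i was the reverse: 0 UMIs in 20 and 88 Chat neurons. The other neurons held 79 UMIs, or 26.5 CPM. With a floor of 3 UMIs over the 108 Chat neurons, 4.41 CPM, the level there was at least 6.00-fold lower (adjusted p = 6.69e-05, and 0.108 with DESeq2). This bound rests on the 4OH-tamoxifen library, where 3 UMIs are 5.31 CPM in Chat neurons. In the untreated library they are 26.1 CPM, near the 26.5 of the other neurons, so that library alone sets no bound. Cacna2d2 was lower as well, at 78.4 and 79.7 CPM against 239 and 200 in the other neurons, by -1.45 ± 0.36 (adjusted p = 8.65e-04, and 0.0966 with DESeq2). In Chat neurons, then, Cacna1h was high and Cacna1i was not detectable at this depth, while in Nmb neurons Cacna1i was high and Cacna1h was at 12.6 and 10.2 CPM, on 2 and 2 UMIs. Chat and Nmb neurons were not tested against each other.

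In the Chat comparison 1 of 10 members was called higher, where 7.91% of 9243 genes were, and 2 lower, where 6.00% were. The median was 0.33, also with Cacna1i at its bound, and -0.01 over all genes. DESeq2 called 1 member, Cacna1h, where it called 3.02% of genes. Cacna1b, the N-type pore, was at 296 [205–414] and 149 [119–184] CPM in Chat, 128 [84.2–186] and 157 [123–199] in Slc17a6, 97.1 [74.6–124] and 111 [93.7–131] in Slc32a1 and 69.4 [34.7–124] and 86.8 [50.6–139] in Nmb neurons. Its change of 0.83 ± 0.32 in Chat neurons was not called (adjusted p = 0.0618), passed in 6 alternatives, among them 1.72 (adjusted p = 2.07e-06) with at most 10% mitochondrial UMIs and 1.38 (adjusted p = 0.01) after thinning, and was 1.47 without the 4OH-tamoxifen library and 0.32 without the untreated one. Chat neurons had a median of 6.18% and 8.15% mitochondrial UMIs, the lowest of the neuron classes, and the part of this was not tested.

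The remaining genes were not called between neuron classes. Cacna1g, the T-type pore of many pacemaking neurons, was at 122 [66.7–205] and 99.1 [74.9–129] CPM in Chat, 64.7 [46.6–87.5] and 73.8 [59.8–90.0] in Slc32a1, 47.3 [22.7–87.1] and 62.1 [41.2–89.7] in Slc17a6 and 37.9 [13.9–82.4] and 25.5 [8.29–59.6] in Nmb neurons, and every neighbour in this order overlaps in both libraries. The L-type gene Cacna1c was at 18.5 to 53.2 CPM over the 4 classes and both libraries, and Cacna1d at 9.47 to 87.1, its highest value from 10 UMIs in untreated Chat neurons. No neighbours in the neuronal part of these orders stand apart in both libraries, and among the alternatives Cacna1d passed in Chat neurons with at most 10% mitochondrial UMIs (1.38, adjusted p = 0.0287), as did Cacna1a (1.07 in place of 0.42, adjusted p = 0.0129), and Cacna1g with all 9 classes in 1 fit (0.95, adjusted p = 0.0257). Over the 9 classes and 10 genes, 80 pairs of neighbours overlap in both libraries in 60 cases and in 1 library in 12, and stand apart in both in 8. Over the 11980 genes with at least 114 UMIs in the gated cells, the count of the least abundant member, 5.54% of neighbours stand apart in both, against 10.0% for the members.

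Among non-neuronal cells the Pdgfra gate, the oligodendrocyte precursors, had the highest mean levels of Cacna1a, Cacna1b, Cacna1c, Cacna1d, Cacna1e, Cacna1g, Cacna1i and Cacna2d2. Of these, Cacna1b (0.25 ± 0.34), Cacna1d (0.60 ± 0.29), Cacna1g (0.06 ± 0.42) and Cacna2d2 (0.00 ± 0.23) were not called against the Aqp4 gate. For Cacna1e the Cldn5 gate is next, overlaps in both libraries and was not tested against the Pdgfra gate. Untreated Cacna1g was at 8.16 CPM in the Aqp4 gate and lower, at 3.70, in the Pdgfra gate. Cacna1a was at 60.1 [46.4–76.6] and 59.8 [47.2–74.8] CPM there and at 8.41 [5.86–11.7] and 4.94 [3.57–6.65] in the Mog gate, Cacna1e at 29.6 [20.2–41.8] and 36.5 [26.8–48.6] and at 2.16 [0.989–4.11] and 2.183 [1.31–3.41], and Cacna1d at 24.0 [15.7–35.2] and 24.1 [16.4–34.2] and at 1.20 [0.390–2.81] and 1.26 [0.631–2.26]. The intervals of precursors and oligodendrocytes stay apart for all 3 genes in both libraries. Median depths were 3203 and 1885 UMIs in the Pdgfra and 9306 and 6488 in the Mog gate, and their part in this was not tested. All 4 fibroblast markers were found in the Pdgfra gate and sum to 758 and 179 CPM (Col1a1 the most abundant in the untreated and Col1a2 in the 4OH-tamoxifen library), against 7.93 and 11.4 in the Mog and 249 and 138 in the Aqp4 gate, and the part of fibroblasts in the levels was not tested either. The 5 precursor markers sum to 6493 and 5901 CPM in the Pdgfra gate (Olig1 the most abundant) and to 1153 and 1105 in the Mog gate. The 5 oligodendrocyte markers sum to more in the Pdgfra gate, 13285 and 19571 CPM, with Mbp the most abundant at 10711 and 15962. In the Mog gate they sum to 82394 and 76485, and their part was not tested. In each library alone, untreated first, the changes against Mog cells were 2.25 and 2.95 for Cacna1a, 2.98 and 3.28 for Cacna1e and 3.33 and 3.30 for Cacna1d. The L-type gene Cacna1c was at 17.6 and 20.98 CPM against 1.92 and 2.07, and Cacna2d2 at 25.0 and 38.1 against 2.16 and 3.45. Not called were Cacna2d1, with 3.70 and 10.9 CPM in precursors and 9.13 and 8.62 in oligodendrocytes (-0.73 ± 0.38, adjusted p = 0.0899), and Cacna1b, which was higher in precursors in both libraries, with 14.8 and 16.3 against 8.41 and 6.43 (0.58 ± 0.32, adjusted p = 0.112).

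The other 8 of 10 members were called higher in Pdgfra than in Mog cells, where 31.4% of 11603 genes were, and 0 lower, where 29.1% were, and DESeq2 called 6, where it called 33.8%. Their changes ran from 1.54 ± 0.46 for Cacna1h (adjusted p = 0.00284, and 0.236 with DESeq2) to 3.72 ± 0.39 for Cacna1d (adjusted p = 8.71e-15). The median of the 10 was 2.73, and 0.02 over all genes. All 5 neuron markers were found in both gates and sum to 298 and 580 CPM in the Pdgfra gate (Snap25 and Stmn2 the most abundant) against 149 and 218 in the Mog gate (Tubb3 in both libraries), and all 5 astrocyte markers to 956 and 1323 against 285 and 371 (Aldoc in each). Without cells that carry neuron markers, 7 of the 8 called members kept their call, with changes from 1.81 for Cacna1h to 4.04 for Cacna1d, and Cacna1g gave no value there. The part of astrocyte transcripts was not tested. Cacna1g rests on the 4OH-tamoxifen library: its change was 1.95 ± 0.46 (adjusted p = 1.39e-04, and 0.222 with DESeq2), but 0.34 in the untreated library alone and 2.28 in the other. Cacna1i, at 7.40 and 6.99 CPM against 0 and 0.689, changed by 3.41 ± 0.60 (adjusted p = 5.00e-07), and by 3.48 and 2.19 in each library alone. The Cacna1i change was 4.06 with DESeq2 and 4.07 with at least 3 UMIs of the gate's marker. Without TMM scaling all genes shift by 0.53 log2 towards Pdgfra cells and the share of higher genes among those called moves from 51.9% to 76.5%, and Cacna1b is then called (1.11, adjusted p = 0.00158). It also passed when non-neuronal cells with neuron markers were left out (0.85, adjusted p = 0.0447). With a marker limit of 1 UMI, Cacna1a changed by 1.51 in place of 2.72, Cacna1d by 2.40 in place of 3.72 and Cacna1e by 2.34 in place of 3.42. That setting took the untreated Pdgfra gate from 311 to 213 cells and the untreated Mog gate from 434 to 294. It also required 0 UMIs of the other 4 non-neuronal markers in a non-neuronal gate, in place of under 2. After thinning Cacna1a changed by 2.11 and Cacna1d by 4.34. All of these were still called.

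Against astrocytes, the precursors had higher Cacna1e, which was at 29.6 and 36.5 CPM against 6.52 [3.73–10.6] and 8.02 [5.45–11.4] in the Aqp4 gate, a change of 1.90 ± 0.30 (adjusted p = 2.37e-09, and 0.00659 with DESeq2) seen in both libraries. Cacna1h went the other way, at 9.24 and 6.99 CPM against 17.5 and 13.4, by -1.21 ± 0.38 (adjusted p = 0.00413). The call was lost with DESeq2 (-1.21, adjusted p = 0.278) and after thinning (-1.16, adjusted p = 0.0806), at about the same size. Cacna1i (2.00 ± 0.59, adjusted p = 0.00249), Cacna1c (1.20 ± 0.36, adjusted p = 0.00249) and Cacna1a (0.51 ± 0.19, adjusted p = 0.0222) were also called higher. So 4 of 10 members were called higher, where 22.1% of 11359 genes were, and 1 lower, where 23.1% were, and DESeq2 called 1, Cacna1e, where it called 18.5%. The median was 0.43, and -0.01 over all genes. Median mitochondrial shares were 12.4% and 11.3% in the Aqp4 and 7.05% and 8.19% in the Pdgfra gate. The limit of 10% leaves 195 of 807 and 619 of 1732 Aqp4 cells, and Cacna1a then changed by 0.06 (adjusted p = 0.864). Cacna1c changed by 0.60 in the untreated library alone and lost its call with DESeq2, with at most 10% mitochondrial UMIs (0.67, adjusted p = 0.179) and without cells that carry neuron markers (0.89, adjusted p = 0.065). Cacna1a kept its call in 8 of 15 alternatives, with values from 0.06 to 0.79, and DESeq2 gave adjusted p = 0.265 for Cacna1i. Without TMM scaling all genes shift by 0.28 log2 and the share of higher genes among those called moves from 48.8% to 69.0%, and Cacna1d is then called (0.88, adjusted p = 0.00713).

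The Cldn5 gate had Cacna1a at 30.5 [22.1–41.1] and 39.5 [30.3–50.5] CPM and Cacna1e at 19.9 [13.2–28.7] and 34.4 [25.9–44.8]. For Cacna1e both values lie above those of the Aqp4 gate with no overlap. The other members lay between 0 and 6.89 CPM in that gate. In the Mog gate no member passed 9.13 CPM.

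Between the libraries, 10 of 90 pairs of levels had a ratio whose interval leaves out 1, from counting error only, which is 11.1% against 14.3% over the same 11980 genes, and 5 pairs with 0 UMIs in at least 1 library have no ratio. In neurons these were Cacna1a in Slc17a6 (4OH-tamoxifen over untreated 2.09 [1.23–3.78]) and Slc32a1 neurons (1.47 [1.04–2.12]), Cacna1c in Slc32a1 neurons (2.14 [1.13–4.40]), Cacna2d2 in Slc32a1 neurons (0.764 [0.630–0.928]), and in Chat neurons Cacna1b (0.502 [0.333–0.771]), Cacna1d (0.305 [0.128–0.758]) and Cacna2d1 (2.47 [1.08–6.95]). Elsewhere they were Cacna1a in the Mog gate (0.587 [0.367–0.945]), Cacna1e in the Cldn5 gate (1.73 [1.08–2.84]) and Cacna1g in the Pdgfra gate (3.99 [1.33–16.1]). Of these 10, 6 are above and 4 below 1. Intervals aside, 57 of the 85 ratios were above 1, or 67.1% against 48.9% over those genes, from 1 of 5 classes for Cacna1i to 9 of 9 for Cacna1e. No test between the conditions is possible with 1 library each.

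Other genes of calcium handling, 49 in lists without the gate gene Snap25, put the members in context. In neurons against other cells 34 of 44 tested were higher, where 32.3% of all genes were, and 2 lower, where 34.4% were (the shares of all genes are in brackets below). DESeq2 called 35 in either direction, where it called 41.9% of all genes. In the comparisons below, in their order, DESeq2 called 1.06%, 2.04%, 0.868%, 3.02%, 33.8% and 18.5% of all genes. The higher genes were led by the calcium sensors of release Syt1 (5.44 ± 0.21) and Syt2 (4.21 ± 0.18) and the ryanodine receptor Ryr2 (4.28 ± 0.20). In Slc32a1 neurons against glutamatergic neurons 4 of 35 were higher (4.28% of all genes), Syt2 first (1.47 ± 0.18, adjusted p = 2.65e-14), and 2 lower (4.66%), while DESeq2 called 0. In Nmb against Slc32a1 neurons 0 of 31 were higher (5.39% of all genes) and 9 lower (5.95%), while DESeq2 called 1, Syt2: it was at 25.3 and 46.0 CPM against 325 and 394 (-3.26 ± 0.29, adjusted p = 1.14e-13), and Cacna2d3, the third α2δ gene, at 6.31 and 15.3 against 53.9 and 73.8 (-2.46 ± 0.60, adjusted p = 0.00248, and 0.572 with DESeq2). In Nmb against other Slc17a6 neurons 0 of 22 were higher (3.89% of all genes) and 6 lower (4.32%), Syt1, Syt2 and Cacna2d3 (-2.29 ± 0.69, adjusted p = 0.0165) among them, while DESeq2 called 0. The Cacna2d3 levels in Nmb neurons, used in both comparisons, lie at or under 3 UMIs, which are 18.9 and 15.3 CPM there.

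In Chat neurons 5 of 38 were higher (7.91% of all genes) and 7 lower (6.00%), and DESeq2 called 2, with the IP3 receptor gene Itpr3 at 139 and 70.8 CPM against 1.96 and 4.59 (4.57 ± 0.53, adjusted p = 1.01e-15) and Syt1 lower (-1.88 ± 0.37, adjusted p = 1.05e-05). In Pdgfra against Mog cells 26 of 37 were higher (31.4% of all genes) and 3 lower (29.1%), and DESeq2 called 16. The γ subunit gene Cacng4, whose product also binds AMPA receptors, was at 522 and 473 CPM against 10.6 and 15.1 (4.69 ± 0.15, adjusted p = 1.47e-49), and the β subunit gene Cacnb4 at 35.1 and 42.7 against 132 and 155 (-2.40 ± 0.16, adjusted p = 4.68e-25), opposite to most members. In Pdgfra against Aqp4 cells 9 of 37 were higher (22.1% of all genes) and 12 lower (23.1%), and DESeq2 called 7, Cacng4 the first of the higher (2.39 ± 0.15) and the SK channel gene Kcnn2 the first of the lower (-3.49 ± 0.25). Cacna1f, Cacna1s and Cacna2d4 had too few UMIs to be tested in any comparison.

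Genes with the pattern most like each member were found by Pearson r of log2(CPM + 10) over the 18 sums of 9 classes and 2 libraries, among 10648 genes. The sums share libraries, depth and the split into neurons and other cells, so high values are common and carry no p. Among the 3 genes closest to Cacna2d1 was Ntng1 (r = 0.946). Cacna1h was most like Slc9a8 (0.970), which was at 87.1 and 72.6 CPM in Chat neurons and at 15.3 to 28.8 in the other neuron classes. Cacna1g was most like Ryr2 (0.986), Cacna1b like Ube2o (0.982), Cacna2d2 like Syn2 (0.983), Cacna1a like Ergic1 (0.964), Cacna1c like Gabra3 (0.958), Cacna1e like Ssx2ip (0.956) and Cacna1d like Rhobtb2 (0.921). Cacna1i, with 114 UMIs over all gated cells, fell under the limit of 200 and was not compared.

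The promoters of Cacna2d1 and Cacna1i, the pair of genes called higher in Nmb neurons than in both other classes tested, are shown as the 250 bases before the RefSeq start on GRCm38.p6. RefSeq promoters were at hand for 7 of the 10 members. Capitals mark the GC box (GGGCGG, or CCGCCC on the other strand), which 32.7% of 32851 promoters of that length hold; overlapping matches are joined. Cacna2d1 lies at chr5:15934441-15934690 and Cacna1i at chr15:80286988-80287237, both on the plus strand.
Cacna2d1: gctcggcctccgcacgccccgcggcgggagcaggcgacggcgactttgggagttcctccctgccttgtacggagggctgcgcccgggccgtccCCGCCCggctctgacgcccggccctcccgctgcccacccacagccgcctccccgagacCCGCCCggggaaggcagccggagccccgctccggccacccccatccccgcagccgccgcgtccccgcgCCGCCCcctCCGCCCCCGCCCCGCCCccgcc
Cacna1i: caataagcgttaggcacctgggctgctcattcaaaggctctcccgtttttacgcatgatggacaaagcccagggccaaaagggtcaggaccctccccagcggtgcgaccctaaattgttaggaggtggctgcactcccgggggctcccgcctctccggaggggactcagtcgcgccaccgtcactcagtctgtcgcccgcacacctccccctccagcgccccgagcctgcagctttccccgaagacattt
The Cacna2d1 promoter has 82.4% G and C, 36 CpG and 6 GC boxes, and the Cacna1i promoter 62.4%, 16 and 0, against a median of 52.4% G and C over all promoters. A match is a description of letters only, and no match says only that these letters are not in the window.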

How the data were processed

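The authors made the deposited values, a UMI count for each gene in each barcode, with bcl2fastq 2.18.0.12 and Cell Ranger 2.2.0 on the 10X Genomics mm10 reference, and the deposited counts are neither normalized nor filtered for doublets or quality. The libraries hold 3767 and 10241 barcodes with 18496942 and 34704167 UMIs (untreated first). Scrublet doublets (scanpy 1.11.5; 6 and 544 barcodes) and cells with fewer than 800 genes, over 50 hemoglobin UMIs or over 20% mitochondrial UMIs were removed, which kept 3339 and 8558 cells. They share 32 barcodes.

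A non-neuronal gate needs at least 2 UMIs of its marker, under 2 of the other 4 and 0 of Slc17a6, Slc32a1 and Chat. A neuronal gate needs UMIs of at least 2 of Snap25, Syp, Tubb3 and Elavl2, under 2 of each non-neuronal marker, and either at least 2 Nmb UMIs with 0 of Slc32a1 and Chat, or under 2 Nmb UMIs and at least 1 of Slc17a6, Slc32a1 or Chat with 0 of the others. Cells in no gate were left out. UMIs were summed per gate and library. The 7 class comparisons used edgeR 4.0.16 (R 4.3.3; filterByExpr, TMM, quasi-likelihood test) and DESeq2 1.42.0, with Benjamini-Hochberg adjustment over all genes tested. The residual spread is that of the class difference between the libraries, which come from different pools, and not that between cells. No paired analysis of the conditions was possible because each condition has replicate 1 only. The procedure was tested on simulated data. Depth limits each class: 3 UMIs are 18.9 and 15.3 CPM in Nmb neurons but 0.721 and 0.345 CPM in the Mog gate. From the gene lists, at most the 6 genes with the smallest adjusted p per comparison may be named, and the 3 most similar genes per member with at least 200 UMIs. A few of the genes and motifs compared are not reported. The members and lists were chosen with earlier results of these data known. The shares of all genes beside the counts of intervals were added after the results were seen. The 16 alternatives were DESeq2, no TMM scaling, no low-count filter, no library term, all gates in 1 fit, marker limits of 1 and 3 UMIs, at least 3 neuron markers, non-neuronal cells without neuron markers, Nmb with Slc17a6, no doublet removal, doublets at the expected rate, at most 10% mitochondrial UMIs, at least 1200 genes, thinning to 2000 UMIs, and each library left out in turn. The marker limit of 1 UMI and the setting Nmb with Slc17a6 each changed more than 1 gate condition at once. With the former, a non-neuronal gate also needed 0 UMIs of the other 4 non-neuronal markers, in place of under 2. With the latter, the Nmb gate needed at least 1 UMI each of Nmb and Slc17a6, in place of at least 2 Nmb UMIs. Promoters are those of RefSeq, and GENCODE M21 showed that the 2 printed overlap no annotated exon.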

Additional observations from a re-analysis of the deposited data

Results flagged for a closer look

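In 10 cases the untreated and the 4OH-tamoxifen library gave opposite signs for a member's class difference (log2 fold change of each library alone, untreated first). None of these differences was called over both libraries, and the difference between the libraries was not tested. In Chat against other neurons Cacna2d1 was at -1.31 and 0.21, with 6 and 73 UMIs in Chat neurons, and Cacna1e at -0.43 and 0.48. In Slc32a1 against Slc17a6 with Nmb neurons Cacna1i was at -1.21 and 0.04, Cacna1d at 0.55 and -0.22 and Cacna1e at 0.08 and -0.28. In Nmb against Slc32a1 neurons Cacna1c was at 0.43 and -0.30. In Pdgfra against Aqp4 cells Cacna1g was at -1.24 and 0.71, on 4 and 19 UMIs in Pdgfra cells, Cacna1b at -0.13 and 0.56, Cacna2d1 at -0.25 and 0.56 and Cacna2d2 at -0.16 and 0.11.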

How the results depend on the processing

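Over 64 class differences of the members and 15 alternatives with a test, 846 of 909 values kept their direction and side of the threshold, 28 lost the call, 17 gained it and 18 turned direction, all 18 uncalled in both settings. For each change below the cause was not tested, beyond the fewer genes and cells that the alternatives themselves leave. DESeq2 accounts for 12 of the lost calls, at most 10% mitochondrial UMIs for 5. With DESeq2 most of these 12 stayed near their reported size, such as Cacna1a at 1.25 in both fits for Nmb against Slc32a1. Cacna1g was at 1.61 in place of 1.95 for Pdgfra against Mog. Without the low-count filter, and with at least 3 neuron markers, all 64 stayed.

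Counts of called genes moved by over 1.5 times as follows. With DESeq2 they were 5813 for neurons (9247 reported), 89 for Slc32a1 against Slc17a6 with Nmb (750), 141 for Nmb against Slc32a1 (785), 37 for Nmb against other Slc17a6 (350), 279 for Chat (1286), 3922 for Pdgfra against Mog (7026) and 2099 for Pdgfra against Aqp4 (5133). In the same order of neuron comparisons they were 232, 411 and 149 without the library term, 245, 69 and 29 with at most 10% mitochondrial UMIs, and 137, 262, 84 and, for Chat, 673 after thinning, with 4400 for Pdgfra against Mog. At least 3 neuron markers gave 497 for Nmb against Slc32a1, and all 9 gates in 1 fit gave 2113 for Chat. Nmb with Slc17a6 gave 216 for Nmb against other Slc17a6. That setting also left 20 and 74 cells in the Slc17a6 gate in place of 22 and 84.

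Values that turned direction were, for Pdgfra against Aqp4, Cacna1b -0.14, Cacna1g -0.07 and Cacna2d1 -0.04 with 1 marker UMI, Cacna1b -0.46 and Cacna1g -0.17 with at most 10% mitochondrial UMIs, Cacna1b -0.27, Cacna1g -0.61 and Cacna2d1 -0.07 with at least 1200 genes, and Cacna1g -0.20 with DESeq2, while Cacna1b gained the call without non-neuronal cells that carry neuron markers (0.98 in place of 0.25, adjusted p = 0.049). For Nmb against Slc32a1 they were Cacna1c 0.06 with DESeq2, 0.05 in the setting Nmb with Slc17a6 and 0.01 with doublets at the expected rate, and Cacna1b 0.62 with at most 10% mitochondrial UMIs. For Slc32a1 against Slc17a6 with Nmb they were Cacna1b 0.13 and Cacna1e 0.30 with all 9 gates in 1 fit and Cacna1d -0.01 with 1 marker UMI. Cacna2d2 was at 0.03 for Nmb against other Slc17a6 in the setting Nmb with Slc17a6, which changed the cells of both gates. Cacna1c was at 0.53 for Chat after thinning.

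Limits: the Nmb gate holds 24 and 54 cells and the Chat gate 20 and 88, so levels under 18.9 and 15.3 CPM in Nmb neurons rest on fewer than 3 UMIs. The spread of a gene rests on 1 residual degree of freedom, and edgeR moderates it with the spread of all genes tested. With 1 library left a value has no test: 43 of the 64 differences stayed within 1 standard error without the untreated library and 39 without the 4OH-tamoxifen library. Of 180 levels, 145 stayed within their counting interval after thinning and 150 with at most 10% mitochondrial UMIs.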

Other observations

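Subsets of the classes, gated by 1 further transcript each and described without a test, show where the α2δ transcripts lie. Among Slc32a1 neurons, those with Cck (13 and 38 cells, untreated first) had Cacna2d2 at 718 [562–905] and 511 [403–638] CPM and those with Sst (33 and 108 cells) at 115 [77.3–164] and 139 [107–178]. The intervals stand apart in both libraries. Those with Ndnf (4 and 13 cells) had 301 [165–506] and 259 [154–410] CPM, the first from 14 UMIs of which 1 cell held 10, and those with Pvalb (2 and 15 cells) 44.6 [1.13–248] and 100.1 [36.8–218]. Slc17a6 neurons with Th (5 and 12 cells), the enzyme of catecholamine synthesis, had 354 [244–498] and 357 [246–502] CPM. Cacna2d1 was at 670 [516–856] and 526 [389–696] CPM in Nmb neurons with Gal and at 397 [257–586] and 525 [395–686] in those without, which overlap.

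Outside the 9 classes, cells with the pericyte genes Rgs5 and Kcnj8 (65 and 57 cells) had Cacna2d1 at 69.97 [36.2–122] and 36.3 [9.88–92.9] CPM, on 12 and 4 UMIs, Cacna1c at 46.7 [20.1–91.9] and 18.1 [2.197–65.5] and Cacna1h at 40.8 [16.4–84.1] and 18.1 [2.197–65.5], while 0 UMIs of Cacna1g and Cacna1i were found in either library. Cells with Gpr17, a gene of committed oligodendrocyte precursors (652 and 1878 cells), had Cacna1a at 25.3 [20.6–30.7] and 20.6 [17.4–24.2] CPM, Cacna1e at 7.93 [5.42–11.2] and 6.23 [4.54–8.34] and Cacna1d at 7.18 [4.81–10.3] and 6.37 [4.66–8.49]. The Gpr17 gate set no limit on Pdgfra or Mog UMIs, so its cells may also belong to the Pdgfra or the Mog gate. Shared cells were not counted, and their part in the levels was not tested. Cacna1a, Cacna1e and Cacna1d lie between the Pdgfra and the Mog gate, with intervals that overlap neither in either library. So do Cacna1c, at 7.18 and 8.44 CPM, and Cacna2d2, at 6.69 and 8.31. Cacna1b, Cacna1g, Cacna1h, Cacna1i and Cacna2d1 overlap the Mog gate in at least 1 library.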
